A study of Mus musculus with 8 samples.

Results

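The genes described here encode parts of the contractile apparatus of smooth muscle and of the early heart. They are the actins Acta2, Actc1 and Actg2, the actin-associated proteins Tagln, Cnn1, Cald1, Tpm1 and Tpm2, the regulatory myosin light chain Myl9 and the nonmuscle myosin heavy chain Myh9. Probes, apart from control probes, were taken where their transcript accession matched a RefSeq transcript of one of these genes. This gave 16 probes for 10 genes, among 39429 probes and 22413 tested genes in all. A probe for one of these genes under another kind of accession would be missed, as 13005 probes matched no RefSeq gene. All samples were cells of the pluripotent mouse line R1, differentiated for 48 h as embryoid bodies, the aggregates that embryonic stem cells form in suspension. They had been transfected with a control or with 1 of 2 siRNAs against CnAβ1, a product of alternative splicing of Ppp3cb, the gene for a catalytic subunit of the phosphatase calcineurin. Total RNA of 3 Control samples, 3 samples with siRNA 1 and 2 with siRNA 2, all collected 48 h after transfection, was measured on Agilent arrays in 1 colour. The labels do not say whether the replicates came from separate cultures, so p-values measure the spread between these arrays, which may be technical.

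In contracting cells, myosin pulls on actin filaments. In smooth muscle this is switched on when the regulatory light chain, the product of Myl9, is phosphorylated, while calponin (Cnn1), caldesmon (Cald1), transgelin (Tagln) and the tropomyosins (Tpm1, Tpm2) bind the actin filament and modulate or stabilise it. Transcription of many of these genes is driven by serum response factor with its coactivators of the myocardin family, through a DNA element called the CArG box. Smooth muscle actin and transgelin are not restricted to smooth muscle, since the first heart muscle cells of the mouse embryo make both together with cardiac actin, and fibroblasts can make them too.

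Each value is the log2 of the background-corrected signal from which that of the array's 75th percentile was subtracted, so that 0 is a signal at that percentile. It is called log2 signal below. Between 68.0% and 75.1% of the 43020 non-control spots of an array were well above background, and 0 spots were saturated. All 16 probes of the contractile genes were well above background on all 8 arrays. The arrays lay on 3 slides, with all replicates 1 on slide 1, Control replicate 2 and siRNA 1 replicate 3 on slide 2, and Control replicate 3 and replicate 2 of both siRNAs on slide 3. Slide 1 stood apart on the leading principal component (42.4% of the variance), with scores from -34.6 to -32.2 against 13.3 to 26.3. Every Control array lay at the first position of its slide, so position and group cannot be told apart. The Ppp3cb probe stood at 0.63 ± 0.11 (SD, n = 3) in Control, 0.39 ± 0.21 (n = 3) with siRNA 1 and 0.52 ± 0.15 (n = 2) with siRNA 2. The siRNAs differed from Control by -0.17 in limma's fit (adjusted p = 0.9998), and whether this probe reads the CnAβ1 variant is not known here.

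Control replicate 1 held transcripts of the heart muscle sarcomere that were low or near background on the other arrays, and this bears on several of the contractile genes. Among 22413 genes, 8 stood more than 4-fold (2 on the log2 scale) above the highest other array on Control replicate 1, a search made after the values were seen. The same search gave 0 genes on each of the other 7 arrays. Only tested genes were searched, and a gene that was not above background throughout any group is not among them. Of untested heart muscle genes, the troponin Tnnt2 (34.1-fold), phospholamban, Pln (10.2-fold), and Csrp3 (5.98-fold) also passed this gap on Control replicate 1. Cox6a2, a heart and skeletal muscle subunit of cytochrome oxidase, exceeded the highest other array by 26.4-fold. The ventricular myosin light chains Myl3 and Myl2 exceeded it by 15.4-fold and 11.5-fold, and cardiac actin, Actc1, by 11.3-fold. The titin cap Tcap stood 9.22-fold, cardiac troponin I (Tnni3) 5.48-fold, cardiac myosin-binding protein C (Mybpc3) 5.14-fold and the natriuretic peptide Nppa 4.29-fold above it.

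Of 25 cardiac sarcomere and heart muscle genes on the array, 18 had their highest signal on Control replicate 1, where 13.2% of all tested genes did. The atrial and embryonic light chains were among the exceptions. Myl4 was lowest on Control replicate 1 at -2.02, against -1.80 to -1.28 elsewhere, and Myl7 was lowest there at -5.44, against -5.19 to -4.46. The heart transcription factor Nkx2-5 stood at -2.73 there, within the range of the other arrays (-3.10 to -2.69). The summed signal of the 25 genes, in units of the array's 75th percentile, was 18.6 on Control replicate 1, 7.31 to 7.78 on the other Control arrays, 7.80 to 8.23 with siRNA 1 and 8.33 to 8.69 with siRNA 2. The main differences below are therefore also given without that array.

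**Figure D1:**
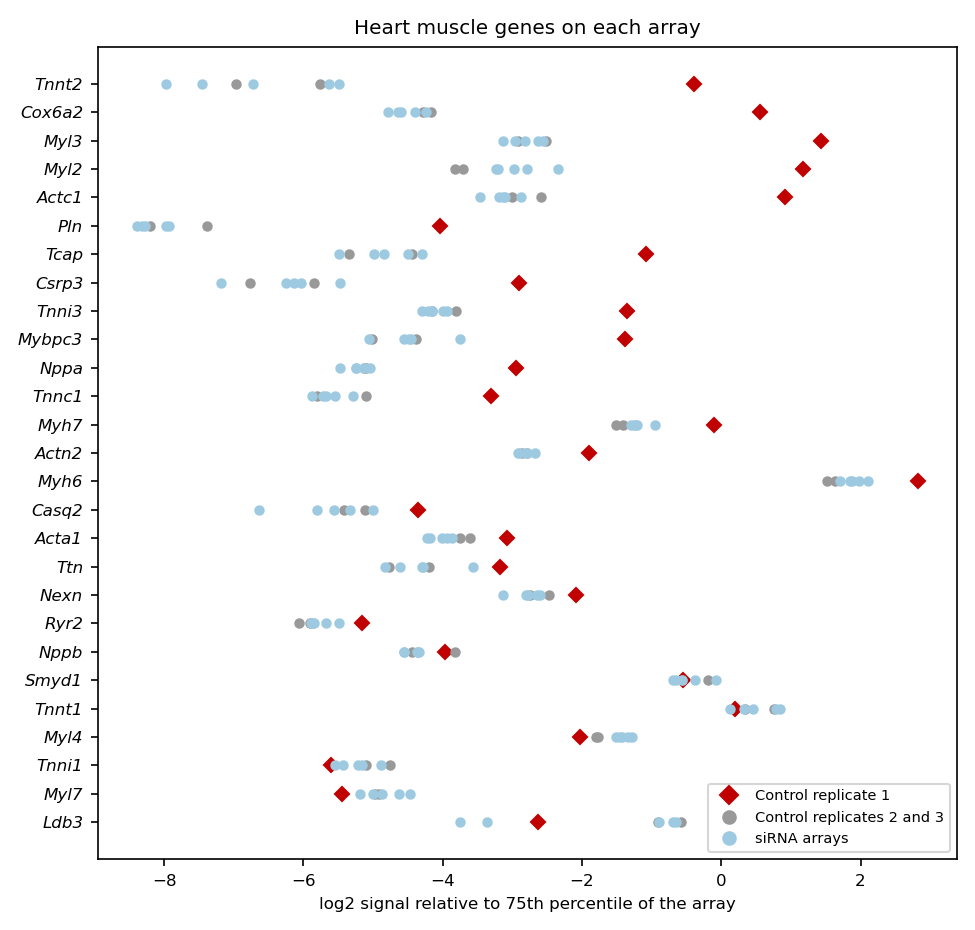
Heart muscle genes on each array, in log2 signal (array's 75th percentile at 0), with 1 row of points per gene and Control replicate 1 marked apart from the other 7 arrays. Cox6a2, Myl3, Myl2 and Actc1 lie far to the right on Control replicate 1, whereas Myl4 and Myl7 are lowest there.

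Of the 10 contractile genes, 4 (Acta2, Tagln, Myl9 and Tpm1) were lower on all 5 siRNA arrays than on any Control array. Their fitted differences for the mean of both siRNAs against Control lay between -0.56 and -0.26 on the log2 scale, or 1.20-fold to 1.48-fold lower. None of the differences passed the threshold of an adjusted p of 0.05 over all genes in limma, where 0 of 22413 genes (0%) were called and the smallest adjusted p was 0.324. At an unadjusted p under 0.05, 801 genes passed, 290 of them lower in the siRNA arrays, which is 1.29% of those tested, and 4 of the 10 contractile genes were among those lower. Higher values at that level made up 2.28% of the genes and held 0 of the 10. In 0.982% of the genes all siRNA arrays lay below all Control arrays, and 4 of the 10 contractile genes did so. With fits below 0 for 47% of genes, 9 of the 10 contractile genes were below 0. Their median was -0.29 against 0.01 over all genes tested. The genes were chosen with earlier results for Acta2 and Tagln in these arrays known, so these counts describe the list and are not a test of it. In bulk RNA of this kind, fewer cells of a type and less RNA per cell cannot be told apart.

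**Figure D2:**
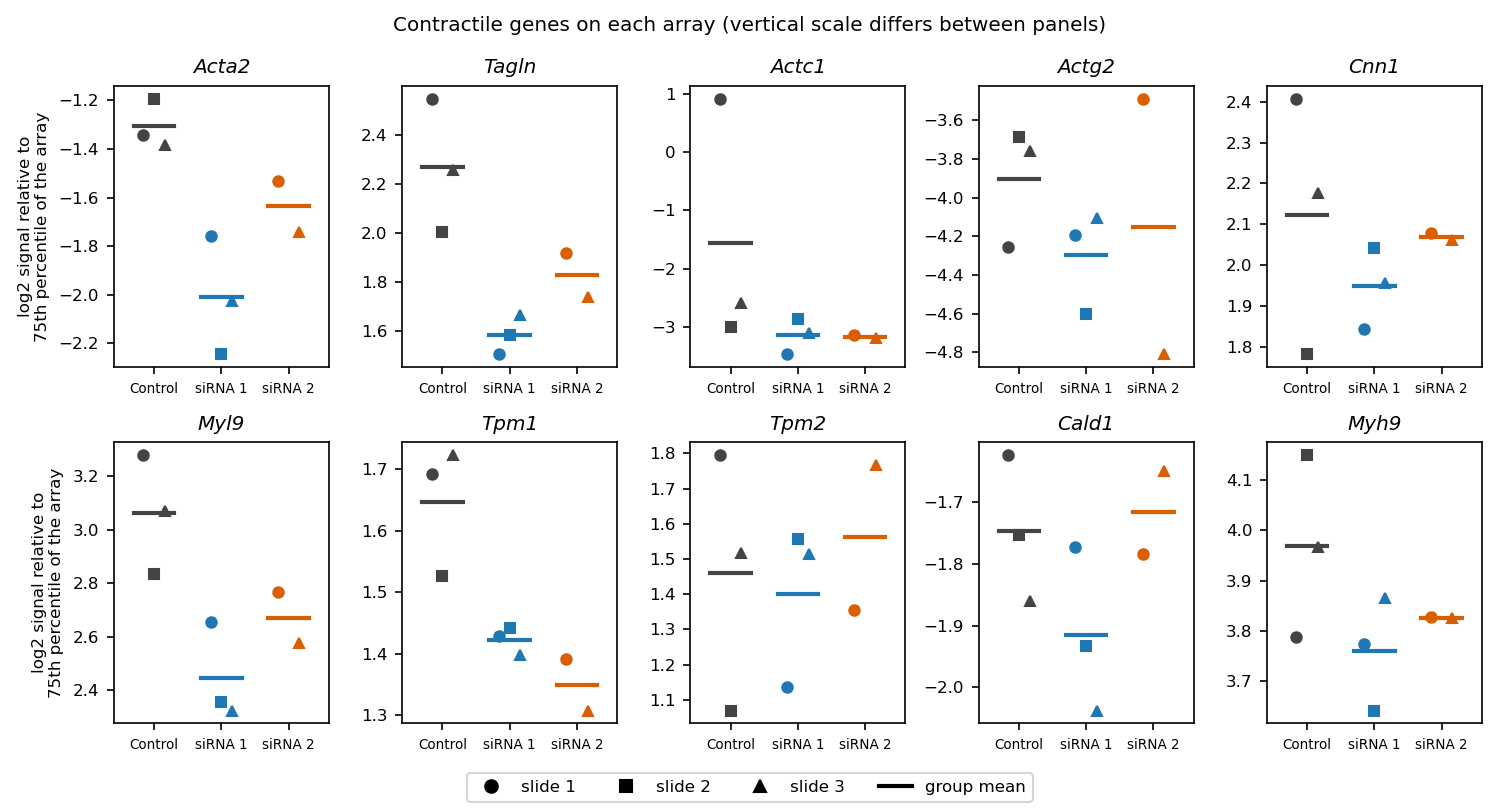
Log2 signal (array's 75th percentile at 0) of the 10 contractile genes on each of the 8 arrays by group, with the slide as the point's shape and the group mean as a bar. The vertical scale differs between panels. The siRNA points of Acta2, Tagln, Myl9 and Tpm1 all lie below the Control points, and Actc1 has 1 Control array at 0.91 and the other 7 arrays between -3.47 and -2.59.

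Smooth muscle actin, Acta2 (probe A_52_P420504), is the actin isoform of vascular smooth muscle. Its log2 signal was -1.34, -1.19 and -1.38 on the Control arrays, -1.76, -2.03 and -2.25 with siRNA 1, and -1.53 and -1.74 with siRNA 2. All 5 siRNA arrays lay below the lowest Control array, and siRNA 1 lay below siRNA 2 by a narrow margin at its nearest array. The group means were -1.31 ± 0.10 (SD, n = 3), -2.01 ± 0.24 (n = 3) and -1.64 ± 0.15 (n = 2). The mean of both siRNAs differed from Control by -0.52 ± 0.13 (SE; 1.43-fold lower, limma's adjusted p = 0.953), with a 95% interval from -0.81 to -0.22. With siRNA 1 alone the difference was -0.70 ± 0.14 (1.63-fold lower, adjusted p = 0.789), with an interval from -1.03 to -0.37. With siRNA 2 alone it was -0.33 ± 0.16 (1.26-fold lower, adjusted p = 0.9997), with an interval from -0.70 to 0.04. An exact two-sided permutation test over the 56 splits of the arrays gave p = 0.0536, and over the 18 placements of Control within slides p = 0.111. The smallest values these tests can give are 0.0179 and 0.0556. The siRNA arrays differed from the Control array of their own slide by -0.41 and -0.19 on slide 1, -1.05 on slide 2, and -0.64 and -0.36 on slide 3, and with the slide as a block the difference was -0.53. Acta2 did not follow the heart genes of Control replicate 1, where it lay between the other Control arrays, and its difference without that array was -0.53.

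The Acta2 probe is printed 10 times on each array, which shows how finely the arrays measured it. The SD of the repeat spots was 0.08 to 0.16 on the log2 scale. The lowest of all Control spots stood at -1.60, while the highest spot with siRNA 1 stood at -1.62 and the highest on siRNA 2 replicate 2 at -1.65. Spots of siRNA 2 replicate 1 ran from -1.84 to -1.43 and overlapped those of Control. Repeat spots share an RNA sample and are not replicates of a condition.

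**Figure D3:**
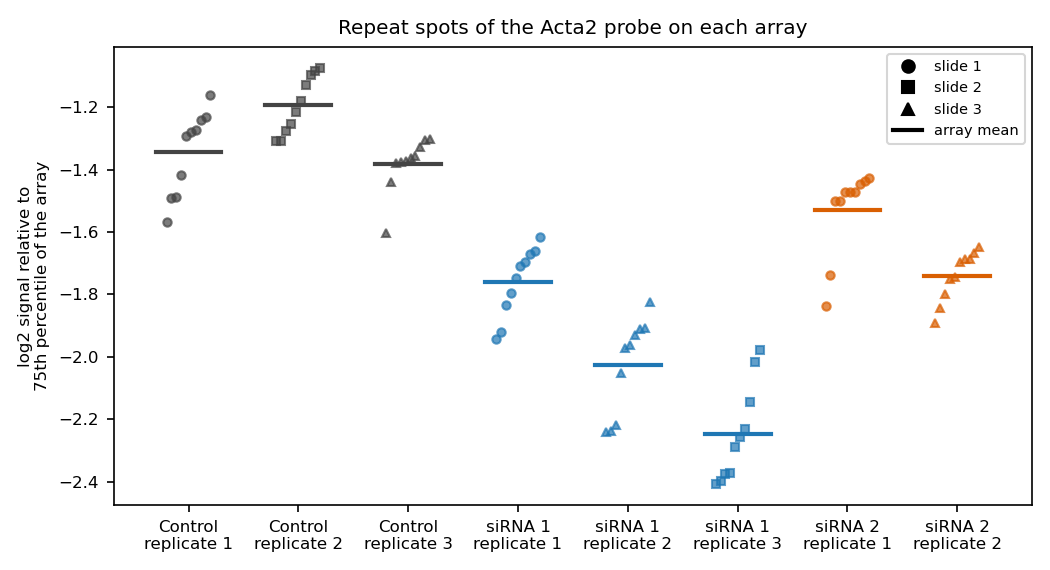
The 10 repeat spots of the Acta2 probe on each array in log2 signal (array's 75th percentile at 0), sorted within the array, with the array mean as a bar and the slide as the point's shape. No spot of siRNA 1 reaches the lowest Control spot, and siRNA 2 replicate 1 overlaps the Control spots.

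Cardiac actin, Actc1 (A_55_P2040951), is the actin of the heart muscle thin filament and is also made early in skeletal and smooth muscle development. It stood at 0.91 on Control replicate 1 and at -3.00 and -2.59 on the other Control arrays. With siRNA 1 it stood at -3.47, -3.10 and -2.87, and with siRNA 2 at -3.14 and -3.19. The fitted difference of -1.60 ± 0.85 (3.02-fold lower, limma's adjusted p = 0.9998) rested on Control replicate 1, and without that array it was -0.36. The siRNA arrays of slide 1 differed from their Control array by -4.38 and -4.05, while those of the other slides differed by 0.13, -0.51 and -0.60. The exact permutation p was 0.0357 over all splits and 0.111 within slides. On the 7 arrays other than Control replicate 1 the groups overlapped, since 1 siRNA 1 array lay above Control replicate 2.

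Enteric smooth muscle actin, Actg2 (A_55_P1963807), had a weak signal. It stood at -4.26, -3.69 and -3.76 in Control, at -4.19, -4.10 and -4.60 with siRNA 1, and at -3.49 and -4.81 with siRNA 2. The siRNA 2 arrays were the highest and the lowest of all 8, and the groups overlapped. The difference was -0.32 ± 0.31 (limma's adjusted p = 0.9998) and moved to 0.0076 when siRNA 2 replicate 2 was left out and to -0.50 when Control replicate 1 was. The coding sequences of the actin genes are nearly identical and the probe sequences were not used here, so cross-hybridisation among actins was not tested. On Control replicate 1 the Actc1 probe was 11.3-fold above the highest other array. The Acta2 and Actg2 probes were not highest there, whereas the probe of skeletal muscle actin, Acta1, was, at -3.08 against -4.23 to -3.61 elsewhere.

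Promoter windows of RefSeq on build GRCm38.p6, from 250 bases before the transcript start to 50 after it, were read for the CArG box. The box was searched on both strands, either whole or with 1 of the 6 letters of its A and T centre replaced by G or C. Windows were matched for 8 of the 10 genes, without Tagln and Actg2. A whole box was found for 2 of the 8, Actc1 and Myl9, and a whole box or a 1-letter variant for 3, which adds Acta2. Among all 32851 windows 1.63% held a whole box and 9.98% held either form. Among nonmuscle and other counterparts of these genes, counted by gene, 4 of 13 with a matched window held a whole box and 6 of 13 either form. The 4 were Acta1, Actg1, Cnn2 and Myl6. Against Control, Acta1 and Cnn2 lay lower on every siRNA array, Actg1 lay higher on every one and Myl6 overlapped. The counterparts as a list did not stand lower. The windows shown are those of the lower genes that could be matched (Acta2, Myl9 and Tpm1), of Actc1, which followed the heart transcripts, and of Cnn1, a smooth muscle gene whose groups overlapped. They are written 5′ to 3′ in the direction of transcription, and capitals mark a CArG box or its 1-letter variant.
Acta2, chr19:34255324-34255623, minus strand: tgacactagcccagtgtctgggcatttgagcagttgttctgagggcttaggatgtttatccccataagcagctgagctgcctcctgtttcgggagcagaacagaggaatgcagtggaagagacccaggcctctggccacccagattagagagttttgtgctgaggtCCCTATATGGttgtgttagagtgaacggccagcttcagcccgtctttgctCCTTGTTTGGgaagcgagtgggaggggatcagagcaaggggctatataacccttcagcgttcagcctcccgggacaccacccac
Myl9, chr2:156775214-156775513, plus strand: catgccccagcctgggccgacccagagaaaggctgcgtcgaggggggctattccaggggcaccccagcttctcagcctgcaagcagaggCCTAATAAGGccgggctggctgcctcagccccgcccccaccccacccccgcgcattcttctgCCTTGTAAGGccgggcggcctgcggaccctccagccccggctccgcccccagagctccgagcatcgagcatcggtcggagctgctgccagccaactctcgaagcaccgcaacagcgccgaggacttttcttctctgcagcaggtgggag
Tpm1, chr9:67049164-67049463, minus strand: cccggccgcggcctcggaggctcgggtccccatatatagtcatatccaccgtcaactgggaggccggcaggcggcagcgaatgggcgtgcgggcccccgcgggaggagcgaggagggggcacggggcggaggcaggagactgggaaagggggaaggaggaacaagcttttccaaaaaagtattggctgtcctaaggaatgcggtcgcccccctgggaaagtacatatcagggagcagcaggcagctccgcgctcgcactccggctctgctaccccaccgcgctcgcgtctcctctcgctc
Actc1, chr2:114052826-114053125, minus strand: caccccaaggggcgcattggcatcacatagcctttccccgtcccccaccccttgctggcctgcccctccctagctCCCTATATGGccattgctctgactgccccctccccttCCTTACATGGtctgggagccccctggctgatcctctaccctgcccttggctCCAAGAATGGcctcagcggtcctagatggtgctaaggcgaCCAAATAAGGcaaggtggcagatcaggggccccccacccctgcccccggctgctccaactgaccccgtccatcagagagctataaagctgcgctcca
Cnn1, chr9:22099003-22099302, plus strand: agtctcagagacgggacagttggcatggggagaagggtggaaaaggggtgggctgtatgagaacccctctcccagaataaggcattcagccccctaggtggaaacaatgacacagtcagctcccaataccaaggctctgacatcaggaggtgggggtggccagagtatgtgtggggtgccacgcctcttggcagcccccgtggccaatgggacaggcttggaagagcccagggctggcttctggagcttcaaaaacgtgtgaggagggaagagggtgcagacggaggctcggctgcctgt

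The Acta2 window holds 2 variants, CCCTATATGG 84 bases and CCTTGTTTGG 34 bases before the start. The Myl9 window holds the whole box CCTAATAAGG 161 bases and the variant CCTTGTAAGG 99 bases before the start. The Actc1 window holds the whole box CCAAATAAGG 47 bases before the start and 3 variants farther upstream, at 87, 138 and 175 bases. The Tpm1 and Cnn1 windows, like those of Tpm2, Cald1 and Myh9, hold neither form. These are matches of letters within the window, and binding of any factor was not measured.

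Transgelin, Tagln (A_51_P450527), is an actin-bundling protein abundant in smooth muscle. It stood at 2.55, 2.00 and 2.26 on the Control arrays, at 1.50, 1.67 and 1.58 with siRNA 1, and at 1.92 and 1.74 with siRNA 2. The groups did not overlap in any pair, with siRNA 1 lowest and Control highest. The means were 2.27 ± 0.27 (SD, n = 3), 1.58 ± 0.08 (n = 3) and 1.83 ± 0.13 (n = 2). The difference of both siRNAs from Control was -0.56 ± 0.13 (1.48-fold lower, limma's adjusted p = 0.911), with a 95% interval from -0.87 to -0.25. For siRNA 1 it was -0.68 ± 0.15 (1.61-fold lower, adjusted p = 0.839), and for siRNA 2 it was -0.44 ± 0.16 (1.36-fold lower, adjusted p = 0.9997). The exact permutation p was 0.0179 over all splits and 0.0556 within slides, the smallest that either can give. Differences from the Control array of the same slide were -1.04 and -0.63 on slide 1, -0.42 on slide 2, and -0.59 and -0.52 on slide 3, and the difference with a slide block was -0.60. Tagln was highest on the Control array with the heart transcripts, and without it the difference was -0.42.

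Calponin, Cnn1 (A_51_P350817), an inhibitor of the actin-activated myosin ATPase that marks differentiated smooth muscle, stood at 2.41, 1.78 and 2.18 in Control, at 1.84, 1.96 and 2.04 with siRNA 1, and at 2.08 and 2.06 with siRNA 2. All 5 siRNA arrays lay inside the Control range. The difference was -0.11 ± 0.14 (limma's adjusted p = 0.9998), with a 95% interval from -0.45 to 0.22, and it was 0.03 without Control replicate 1. As in Tagln, Myl9 and Tpm2, Control replicate 1 was the highest and Control replicate 2 the lowest of the Control arrays.

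Caldesmon, Cald1 (A_51_P357573), which binds actin and myosin and restrains their interaction, stood at -1.62, -1.75 and -1.86 in Control, at -1.77, -2.04 and -1.93 with siRNA 1, and at -1.78 and -1.65 with siRNA 2. The groups overlapped, and 2 siRNA arrays lay below the lowest Control array. The difference was -0.07 ± 0.10 (limma's adjusted p = 0.9998; 95% interval -0.29 to 0.16). Without Control replicate 1 it was -0.0083. A second probe for Cald1 (A_55_P2139181) differed by -0.08.

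Tropomyosin 1, Tpm1, lies along the actin filament and is spliced into many muscle and nonmuscle forms. Its brightest probe (A_55_P2032192) stood at 1.69, 1.53 and 1.72 in Control, at 1.43, 1.40 and 1.44 with siRNA 1, and at 1.39 and 1.31 with siRNA 2. The siRNA arrays all lay below Control, with both siRNA 2 arrays below those of siRNA 1. The difference was -0.26 ± 0.07 (1.20-fold lower, limma's adjusted p = 0.9998; 95% interval -0.44 to -0.08), with -0.22 ± 0.08 for siRNA 1 and -0.30 ± 0.09 for siRNA 2. The exact permutation p was 0.0179 over all splits and 0.0556 within slides. Differences from the Control array of the same slide were -0.26 and -0.30 on slide 1, -0.08 on slide 2, and -0.33 and -0.42 on slide 3. The difference was -0.27 with a slide block and -0.24 without Control replicate 1.

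The 5 probes for Tpm1 did not move alike. Probe A_55_P2078680 differed by -0.32, and by -0.25 without Control replicate 1. It stood below Control on every siRNA array, but narrowly on siRNA 2 replicate 2 (0.50 against 0.51 on Control replicate 2). Probes A_55_P2187038 and A_55_P2187043 differed by -0.61 and -0.66, but they stood 1.07 and 1.09 above the highest other array on Control replicate 1. Without that array they differed by -0.15 and -0.21. Probe A_55_P2187053 differed by 0.04, and its groups overlapped. The files give A_55_P2187038 and A_55_P2187043 the same transcript accession and each other probe a different one, but which splice forms each probe reads was not tested.

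**Figure D4:**
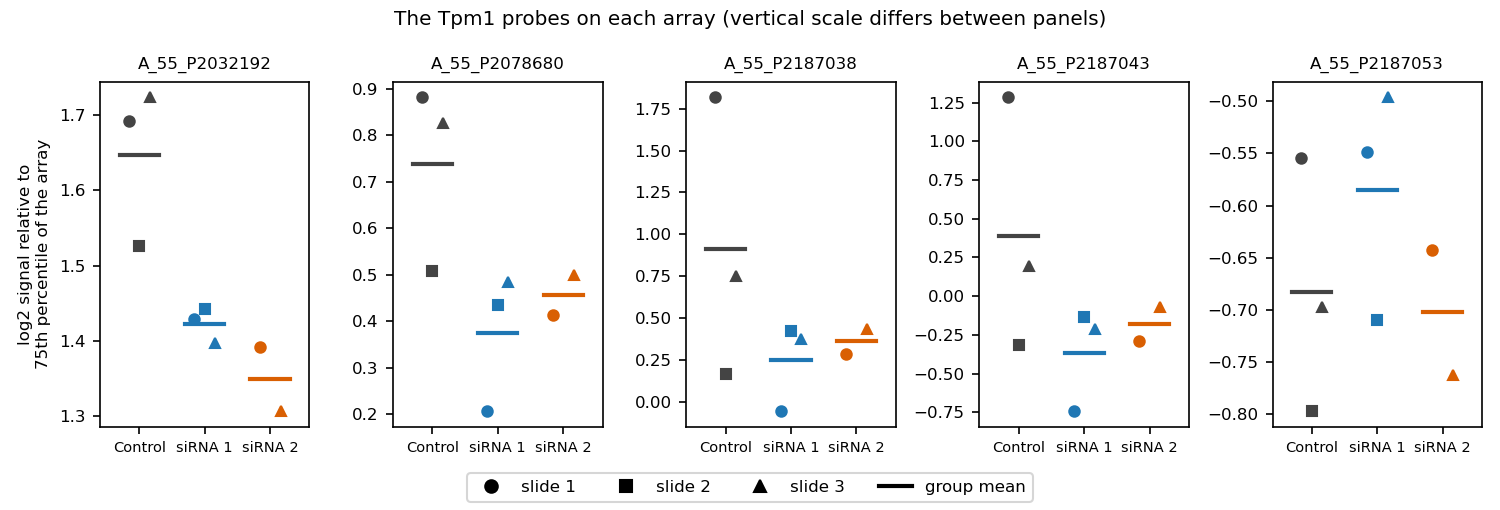
The 5 probes for Tpm1 on each array, in log2 signal (array's 75th percentile at 0), 1 panel per probe with its own vertical scale, the slide as the point's shape and the group mean as a bar. The first 2 panels show every siRNA array below Control, the next 2 show Control replicate 1 (slide 1) far above the rest, and the last shows overlapping groups.

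Tropomyosin 2, Tpm2, the β chain that is prominent in smooth and skeletal muscle, did not separate the groups. Its brighter probe (A_55_P2121408) stood at 1.80, 1.07 and 1.52 in Control, at 1.14, 1.51 and 1.56 with siRNA 1, and at 1.36 and 1.77 with siRNA 2. The Control arrays held both the highest and the lowest value. The difference was 0.02 ± 0.20 (limma's adjusted p = 0.9998), with a 95% interval from -0.44 to 0.49, and the second probe (A_52_P315976) differed by -0.01.

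The regulatory light chain Myl9 (A_51_P308298), whose phosphorylation starts smooth muscle contraction, stood at 3.28, 2.83 and 3.07 in Control, at 2.65, 2.32 and 2.36 with siRNA 1, and at 2.77 and 2.58 with siRNA 2. All siRNA arrays lay below the lowest Control array. The means were 3.06 ± 0.22 (SD, n = 3), 2.44 ± 0.18 (n = 3) and 2.67 ± 0.13 (n = 2). The difference of both siRNAs from Control was -0.50 ± 0.13 (1.42-fold lower, limma's adjusted p = 0.9998; 95% interval -0.82 to -0.19), with -0.62 ± 0.15 (1.53-fold lower) for siRNA 1 and -0.39 ± 0.16 (1.31-fold lower) for siRNA 2. The exact permutation p was 0.0179 over all splits and 0.0556 within slides. Differences of Myl9 from the Control array of the same slide lay close together, at -0.62 and -0.51 on slide 1, -0.48 on slide 2, and -0.75 and -0.49 on slide 3. With the slide as a block the difference was -0.54 (adjusted p = 0.864), and without Control replicate 1 it was -0.39.

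The nonmuscle myosin IIA heavy chain Myh9 (A_55_P2028600), which drives cortical tension and cell division in most cells, stood at 3.79, 4.15 and 3.97 in Control, at 3.77, 3.87 and 3.64 with siRNA 1, and at 3.83 and 3.83 with siRNA 2. Control replicate 1 lay among the siRNA arrays, so the groups overlapped. The difference was -0.18 ± 0.10 (limma's adjusted p = 0.9998; 95% interval -0.42 to 0.07). Without Control replicate 1 it was -0.26, and Myh9 then joined the genes whose siRNA arrays all lay below Control, 5 of the 10 where 3.9% of all genes did so.

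The comparisons of each siRNA with Control share the 3 Control arrays. With siRNA 1, 10 of the 10 genes were below 0 in the fit, where 41.7% of all genes were. Acta2, Tagln, Myl9 and Tpm1 passed an unadjusted p of 0.05, a level that 0.892% of genes passed as lower, and their arrays did not overlap Control, as in 2.48% of genes. As higher, 2.62% of genes passed that level and 5.47% did not overlap, with 0 of the 10 among either. With siRNA 2, 8 of the 10 were below 0, against 50.1% of genes. Tagln, Myl9 and Tpm1 passed an unadjusted p of 0.05 (1.93% of genes as lower), and those genes with Acta2 and Actc1 did not overlap Control (8.08% of genes). The count of 3 depended on single arrays. It was 1 (Tpm1) without Control replicate 1, where 4.18% of genes were lower at that level, and 0 without Control replicate 3 or without siRNA 2 replicate 2 (1.18% of genes in each). None of the 10 lay above Control without overlap, as 8.82% of genes did, and none passed the unadjusted level as higher, as 1.42% did. The medians of the 10 genes were -0.31 with siRNA 1 and -0.27 with siRNA 2, against 0.02 and -0.00 over all genes.

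Set against each other, the siRNAs differed by a median of 0.15 over the 10 genes, siRNA 2 being the higher, and by -0.03 over all genes. Acta2 was 0.37 ± 0.16 higher with siRNA 2 (limma's adjusted p = 0.9999), the 1 contractile gene at that unadjusted level, which 0.808% of genes reached as higher and 2.49% as lower. With the slide as a block this difference was 0.34 and no longer reached that level, which it did in 5 of 19 alternatives. With fits below 0 in 57.4% of genes, 2 of the 10 contractile genes were below 0. Acta2, Tagln and Cnn1 were higher with siRNA 2 with no overlap, as were 7.31% of genes, and Tpm1 was lower with no overlap, as were 11.7%.

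**Figure D5:**
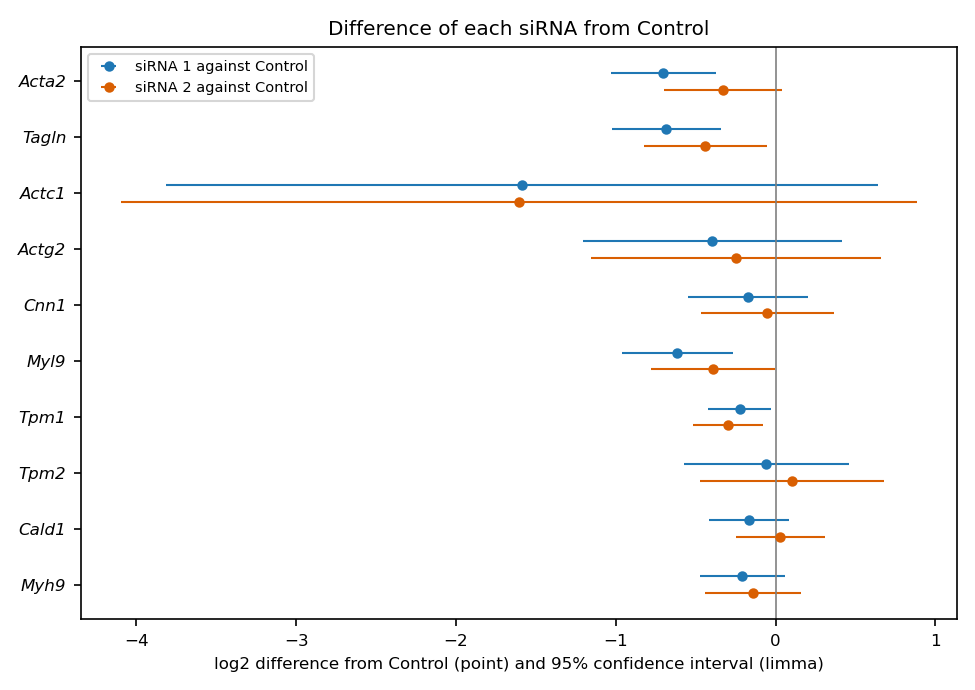
Fitted log2 difference from Control of each contractile gene for siRNA 1 and siRNA 2, with 95% confidence intervals from limma that are not adjusted for the number of genes. The intervals of Tagln, Myl9 and Tpm1 lie below 0 for both siRNAs, that of Acta2 for siRNA 1, and those of Actc1 are the widest.

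Across the 8 arrays, Tagln and Myl9 ran most alike among the 45 pairs of contractile genes (r = 0.92), followed by Acta2 with Myl9 (r = 0.85). With each slide's mean removed, these values were 0.93 and 0.85. Next came Tagln with Tpm1 (r = 0.82) and Myl9 with Tpm1 (r = 0.81). Actc1 ran with Cnn1 (r = 0.81), but both were highest on Control replicate 1, and their r without that array was not computed. Actg2 ran opposite to Tpm2 (r = -0.59). Among 15561 other named genes, those most like Acta2 included Nfkbil1 (r = 0.96), Ccnh, Fap and Itgb1 (r = 0.95). Fap was well above background on the 3 Control arrays alone and was tested only through that group. Its r therefore rests on siRNA values near background and does not show a likeness. Those most like Tagln were Itgb5, Cnn2 and Acta1 (each r = 0.97), and then Psmb8 and Frat1 (each r = 0.96). These correlations describe 8 arrays that share slides and group differences.

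The nonmuscle and other counterparts of the contractile genes did not stand lower as a list. Of 15 measured, 7 were below 0 and 8 above in the fit, with a median of 0.01. The cytoplasmic actins Actb and Actg1 differed by 0.09 and 0.13, transgelin 2 (Tagln2) by 0.01, the acidic calponin Cnn3 by 0.01, and the light chains Myl6, Myl12a and Myl12b by -0.01, -0.04 and -0.03. The tropomyosins Tpm3 and Tpm4 differed by 0.07 and -0.11, the myosin heavy chains Myh10 and Myh11 by -0.07 and 0.03, and the neuronal transgelin Tagln3 by 0.30. Skeletal muscle actin, Acta1, lay below Control on every siRNA array with a difference of -0.55, as did calponin 2 (Cnn2) with -0.24. Part of the Acta1 difference rested on Control replicate 1, where it stood at -3.08, against -3.75 and -3.61 on the other Control arrays. The nonmuscle myosin Myh14, with 0.22, and Actg1 lay above Control on every siRNA array. Over all genes, 0.982% lay below Control in this way and 2.48% above. The adjusted p was 0.9998 in limma for each of Acta1, Cnn2, Myh14 and Actg1.

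Other smooth muscle genes did not follow Acta2 and Tagln as a list. Of its members, Itgb1 was among the genes most like Acta2, and Acta1 among those most like Tagln. Of 22 tested, 13 were below 0, where 47% of all genes were, with a median of -0.06 (-0.10 without Control replicate 1). At an unadjusted p of 0.05 in limma, 1 was lower, Acta1, and 1 was higher, Ppp1r14a, an inhibitor of myosin phosphatase, by 0.22. Over all genes, 1.29% were lower and 2.28% higher at that level. Acta1 is skeletal muscle actin and is also counted among the counterparts and the cardiac sarcomere genes. Of the markers of differentiated smooth muscle, Myh11 was weak, at -5.45 to -4.49 in Control, and differed by 0.03, and Lmod1 was not well above background on any array. Smtn stood at 1.77 to 2.01 in Control and differed by -0.05. Among regulators of serum response factor, 12 of 21 were below 0 (median -0.00) and 0 passed an unadjusted p of 0.05 in limma. Srf itself differed by -0.10, and its coactivators Mrtfa and Mrtfb by 0.03 and -0.04. The coactivator Myocd differed by -0.47, but its signal was weak, at -5.08 to -4.43 in Control, and its groups overlapped. Of 22 tested cardiac sarcomere genes 19 were below 0 with a median of -0.35, and without Control replicate 1, a setting chosen after its heart genes were seen, 12 were below 0 with a median of -0.06. Among heart and mesoderm factors 8 of 15 were below 0 (median -0.03).

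Markers of other cells that embryoid bodies hold were summed on each array, and of these lists mesoderm and endoderm lay apart from Control with siRNA 2, while the other ranges overlapped. Mesoderm markers were below 0 in 7 of 8 tested with a median of -0.68, and their summed signal was 9.80 to 11.2 in Control, 7.22 to 10.4 with siRNA 1 and 7.28 to 7.65 with siRNA 2. Endoderm markers were below 0 in 9 of 9 with a median of -0.72, with sums of 4.71 to 9.98, 5.09 to 8.45 and 3.01 to 3.05. By siRNA, the endoderm median was -0.28 with 7 of 9 below 0 for siRNA 1 and -1.20 with 9 of 9 below 0 for siRNA 2. Afp, counted among the 9, was well above background on only 6 arrays. It stood at -7.03 and -7.21 with siRNA 2, against -4.73 to -2.20 on the other arrays. Without Control replicate 1 the medians for the mean of both siRNAs were -0.45 for mesoderm and -1.11 for endoderm. Pluripotency markers were above 0 in 7 of 8 with a median of 0.21, with sums of 31.1 to 34.5, 34.4 to 44.1 and 30.5 to 35.4. Fibroblast markers, some of which share cells with Acta2 and Tagln, were below 0 in 6 of 9 (median -0.12) with sums of 4.64 to 5.17, 4.17 to 5.20 and 5.03 to 5.11. Fap, counted among those below 0, was tested only because it was well above background in Control. Skeletal muscle markers were summed at 0.524 to 0.725, 0.600 to 0.666 and 0.578 to 0.609, with Myf5 not well above background on any array, and endothelial markers at 4.12 to 6.37, 4.40 to 6.22 and 4.45 to 4.78, with Tie1 and Emcn not above it. The sums of the 10 contractile genes were 38.2 to 44.0 in Control, 31.0 to 32.8 with siRNA 1 and 34.3 to 35.0 with siRNA 2, and these ranges did not overlap. As linear signals are added, the brightest genes, Myh9 and Myl9 (Control means of 3.97 and 3.06), weigh most and Acta2 (-1.31) little. The sum thus does not speak for each gene of the list. The part of these cell populations in the lower Acta2, Tagln, Myl9 and Tpm1 signals was not tested.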

How the data were processed

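The authors hybridised total RNA of 8 samples to Cy3 arrays and deposited 1 scanner file per array. Per the file headers, its intensity values were made with Feature Extraction 10.7.3.1 by Agilent, which subtracts background but does not scale arrays to each other. A deposited table of log2 values of the same arrays was used as an alternative. Set against the scanner files, it held log2 signal minus the 75th percentile with each probe centred over the arrays, and its Control 2 and Control 3 columns followed each other's file. RMA is named in the submitters' processing notes, without a role.

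Control and outlier spots were left out, spots of a probe were averaged on the log2 scale and each array's 75th percentile was subtracted. Of 39429 probes, 26424 were named by matching their accessions to RefSeq genes (GRCm38.p6). The array design used another build, so no coordinates of probes are given. A gene was represented by its brightest probe and tested if all arrays of 1 or more groups had that probe well above background. This left 22413 genes, 15562 of them with a symbol. One fit over the 3 groups (limma 3.58.1 in R 4.3.3, lmFit and eBayes, 5 residual and 2.08 prior degrees of freedom) gave each comparison, with Benjamini-Hochberg adjustment over all genes and a threshold of 0.05. Counts of calls were checked on simulated data. Exact permutation tests were run for the 10 genes singly, with no adjustment over the list. Marker sums add the linear signals of a list in units of the array's 75th percentile.

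The contractile genes and all gene lists were chosen with earlier results of these data known. The genes named by rule are the contractile genes, their counterparts, Ppp3cb, Srf and its coactivators, for each other list the 2 genes of smallest p (named in the report or in the closing section), and the 5 genes most like Acta2 and Tagln. A gene that this rule takes is not reported here. The genes that stand out on Control replicate 1, Nkx2-5, Smtn, Lmod1, Afp and the markers below background were named after their values were seen. Alternatives were quantile normalization, normexp on the median spot and background intensity with an offset of 50, the deposited table, other filters on dim probes, the mean of a gene's probes, replicate or slide blocks, array weights, only the groups compared, and leaving out slide 1 or each array. Files were read and plots drawn in Python 3.11.15 (numpy 2.4.6, pandas 2.3.3, matplotlib 3.10.9).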

Additional observations from a re-analysis of the deposited data

How the results depend on the processing

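No contractile gene passed the adjusted threshold under any of the 19 alternatives. For the mean of both siRNAs, Acta2 ranged from -0.65 to -0.37, Tagln from -0.70 to -0.42 and Myl9 from -0.62 to -0.39, each with an unadjusted p under 0.05 in 18 of 18 alternatives, and Tpm1 from -0.36 to -0.22 with 15 of 18. The lowest adjusted p of these genes, 0.0843 for Tagln and Myl9, came with array weights, which gave 21 genes called where the fit as reported had 0; the weights did not fully converge, and Control replicate 3 had a weight of 5.66. With only the groups compared, 1 gene was called for siRNA 2 against siRNA 1. Leaving out each array in turn, the genes called numbered 0 to 1 for both siRNAs and for siRNA 1, 0 to 3 for siRNA 2 and 0 to 4 between siRNAs. The median of the contractile genes then ranged from -0.42 to -0.21 for both siRNAs, from -0.38 to -0.24 for siRNA 1, from -0.39 to -0.18 for siRNA 2 and from 0.12 to 0.18 between siRNAs.

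Genes with small differences changed sign. For both siRNAs, leaving out 1 array moved Cnn1 over -0.28 to 0.030, Tpm2 over -0.17 to 0.19 and Actg2 over -0.65 to 0.0076. For siRNA 1 it moved Tpm2 over -0.25 to 0.11. For siRNA 2 it moved Cnn1 over -0.22 to 0.091, Tpm2 over -0.10 to 0.31, Cald1 over -0.038 to 0.096 and Actg2 over -0.91 to 0.41, and between siRNAs Actc1 over -0.18 to 0.12, Actg2 over -0.51 to 0.81 and Tpm2 over -0.046 to 0.37. Without slide 1, Cnn1 stood at 0.052, 0.021 and 0.084 for both siRNAs, siRNA 1 and siRNA 2, Tpm2 at 0.24 for siRNA 1 and Actg2 at -0.46 between siRNAs. Cald1 for siRNA 2 was -0.0069 with normexp, -0.00050 with the mean of probes and -0.0039 with the replicate block. Tpm2 was -0.0081 with the slide block, and between siRNAs Tpm1 was 0.037 with the mean of probes and Actc1 0.056 with quantile normalization. The cause of these moves was not tested. At an unadjusted p of 0.05, 4 contractile genes were lower for both siRNAs in the fit as reported (1.29% of all genes). There were 5 without Control replicate 1 (2.71%), 6 without Control replicate 2 (1.99%), 3 without Control replicate 3 (0.805%), 5 without siRNA 2 replicate 1 (1.07%) and 3 with the mean of probes (1.33%).

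By the numbers of the scanner files, the replicates were not taken as pairs. Deviations of same-numbered arrays from their group means correlated at 0.33 and 0.34 for Control replicate 1 with the siRNA arrays of its slide, between -0.04 and 0.05 for Control replicates 2 and 3, and at 0.70 and 0.63 between the siRNAs. With the Control numbers of the deposited table, which exchanges 2 and 3, same-numbered arrays share a slide, the Control pairs correlate at 0.33, 0.34, 0.56, 0.55 and 0.04, and the replicate block is the slide block; which numbering holds is not known here. With the replicate block 0 genes were called in every comparison, 700 had an unadjusted p under 0.05 for both siRNAs, and the contractile median was -0.30. The number of arrays, with 2 for siRNA 2, limits the precision of every value.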

Other observations

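Among the lists beside the contractile genes, the genes with the smallest p for both siRNAs against Control included some that lay opposite to Acta2. The embryonic light chain Myl4 stood 0.46 higher in the siRNA arrays (limma's adjusted p = 0.698), with every siRNA array above every Control array. Wt1, a mesothelial and epicardial factor, differed by 0.33. Pdgfra, a receptor of mesenchymal cells, differed by -0.82, the growth factor Fgf8 by -1.08, the VEGF receptor Flt1 by -0.39, the endoderm factor Foxa2 by -0.93 and the visceral endoderm receptor Cubn by -0.83. Foxa2 and Cubn differed less with siRNA 1 (-0.33 and -0.42) than with siRNA 2 (-1.53 and -1.24). For both genes the siRNA arrays together overlapped Control. The fibroblast protease Fap was well above background on the 3 Control arrays and on no siRNA array. Fbln2, an extracellular matrix protein, differed by -0.23, the pluripotency factors Nanog and Tfcp2l1 by 0.23 and 0.48, the endothelial genes Tek and Pecam1 by 0.28 and 0.13, the skeletal muscle genes Myh3 and Ckm by 0.23 and -0.27, and Elk1, a partner of serum response factor, by 0.22, each with an adjusted p of 0.9998 in limma.

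Ldb3, a Z-disc protein of striated muscle, was low on the arrays of slide 1 of all groups, at -2.64, -3.75 and -3.37, and stood between -0.90 and -0.58 on the other 5 arrays. The troponin Tnnt2 stood at -0.39 on Control replicate 1 and between -7.97 and -5.48 elsewhere, well above background on 3 of those 7 arrays. Phospholamban, Pln, stood at -4.03 on Control replicate 1 and was not well above background on any other array.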
